A study of Caenorhabditis elegans with 2 samples.

Results

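Cytosolic ribosomal proteins are the protein parts of the ribosome that reads nuclear messenger RNA. The genes described here are the protein-coding genes of Caenorhabditis elegans, assembly WBcel235, whose symbols begin with rpl- or rps-, together with rla-0, rla-1, rla-2 and ubl-1. The rule found 82 of 19973 protein-coding genes, of which 50 encode proteins of the large subunit and 32 proteins of the small subunit. It used gene names alone and no measured value. Chromatin immunoprecipitation and sequencing (ChIP-seq) recovers the DNA that is crosslinked to a protein, here CRH-2, a basic leucine zipper factor of the CREB and ATF family. The worms were strain OP425, unc-119(tm4063) III; wgIs425, in which a transgene adds a GFP-FLAG tag to the C-terminus of crh-2 (C27D6.4). Whole L2 larvae were taken as 2 biological replicates of 1 group, so no condition was compared with another. All animals carried both the unc-119 mutation and the transgene, and signal from a whole larva cannot be assigned to a tissue.

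The ribosome is built from a large subunit, where peptide bonds are formed, and a small subunit, where the messenger RNA is decoded. Most of its proteins are needed in equal amounts, and in growing larvae the genes for its proteins are among the most highly transcribed. Many worm messenger RNAs receive a spliced leader in place of their own first bases, and some genes are transcribed together from 1 upstream promoter as an operon. The annotated 5′ end of a gene can therefore be a trans-splice site and lie downstream of the start of transcription. CREB and ATF factors are known to bind the palindrome TGACGTCA and its left part, TGACG.

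A gene was counted as bound when the summit of a peak in the authors' replicated list of 5735 peaks lay between 1000 bp upstream and 250 bp downstream of a transcript's 5′ end. Bound in this sense is a position of signal, since signal at open, active promoters cannot be told apart from binding by CRH-2 without a control library, and none was analysed here. The sequences around the summits are shown first because the bound promoters had recurring stretches in common. Each line gives 101 bases of the reference genome (RefSeq, WBcel235) centred on the summit of the replicated list, on the strand of the named gene. The first 5 are the strongest member peaks among those whose surroundings could be shown here and were clear of annotated untranslated regions. Capitals mark matches to any of the 4 families of recurring bases described with the sequence counts.
rpl-3, chrIII:3867522-3867622, + strand: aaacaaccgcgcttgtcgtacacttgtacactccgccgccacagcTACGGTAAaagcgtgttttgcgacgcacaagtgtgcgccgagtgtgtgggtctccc
rpl-20, chrIV:4750013-4750113, - strand: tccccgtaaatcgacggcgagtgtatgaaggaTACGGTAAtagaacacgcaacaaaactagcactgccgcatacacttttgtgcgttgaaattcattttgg
rpl-35, chrIII:7854649-7854749, + strand: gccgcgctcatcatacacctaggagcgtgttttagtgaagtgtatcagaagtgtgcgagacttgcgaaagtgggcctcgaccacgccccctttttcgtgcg
rpl-15, chrIV:654876-654976, - strand: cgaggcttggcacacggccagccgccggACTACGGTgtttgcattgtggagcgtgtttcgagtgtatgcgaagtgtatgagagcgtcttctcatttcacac
rps-12, chrIII:5679088-5679188, + strand: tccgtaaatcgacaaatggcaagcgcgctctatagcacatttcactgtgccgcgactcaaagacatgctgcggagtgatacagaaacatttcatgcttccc
The peaks at rpl-3, rpl-20 and rpl-15 had a match to 1 family, TACGGTAA or ACCGTAGT, while those at rpl-35 and rps-12 had none.

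Next to it in several promoters stood another recurring stretch, AACGAGTG, and the following 4 peaks show the family ACCGTAGT with it or, at rps-1, without it.
rpl-11.2, chrX:2242931-2243031, - strand: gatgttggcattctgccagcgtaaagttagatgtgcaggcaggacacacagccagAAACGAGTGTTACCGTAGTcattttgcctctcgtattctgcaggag
rpl-22, chrII:5055331-5055431, + strand: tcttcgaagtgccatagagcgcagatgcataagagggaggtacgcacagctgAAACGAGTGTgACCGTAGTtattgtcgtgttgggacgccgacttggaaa
rps-1, chrIII:4475604-4475704, + strand: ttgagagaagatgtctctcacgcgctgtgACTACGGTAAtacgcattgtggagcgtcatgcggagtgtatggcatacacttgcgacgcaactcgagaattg
rpl-34, chrIV:12268524-12268624, + strand: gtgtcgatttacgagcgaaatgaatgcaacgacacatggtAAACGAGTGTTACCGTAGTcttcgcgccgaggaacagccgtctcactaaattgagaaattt
At rpl-11.2 and rpl-34 the capitals ran together into 1 block of the same letters, and at rpl-22 the blocks were split by 1 base.

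A further set, with matches to the other families also in capitals, shows the bases that the most member peaks had in common, GCGAGACC, which reads GGTCTCGC on the other strand.
rpl-6, chrIII:7208072-7208172, + strand: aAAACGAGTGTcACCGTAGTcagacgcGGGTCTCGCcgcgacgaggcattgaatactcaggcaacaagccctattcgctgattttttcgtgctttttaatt
rpl-29, chrIV:13881897-13881997, + strand: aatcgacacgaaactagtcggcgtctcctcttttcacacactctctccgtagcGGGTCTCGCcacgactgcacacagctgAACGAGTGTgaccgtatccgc
rps-4, chrIV:7084899-7084999, - strand: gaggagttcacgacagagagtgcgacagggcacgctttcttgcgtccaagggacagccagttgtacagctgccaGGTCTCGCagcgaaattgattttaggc
rps-8, chrIV:7314104-7314204, - strand: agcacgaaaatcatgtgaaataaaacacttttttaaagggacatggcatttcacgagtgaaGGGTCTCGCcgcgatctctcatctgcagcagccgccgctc
rpl-39, chrV:7776281-7776381, - strand: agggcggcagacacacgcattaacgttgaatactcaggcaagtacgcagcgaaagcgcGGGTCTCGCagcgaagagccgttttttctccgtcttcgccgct
In all 5 of these the match read GGTCTCGC along the gene's strand.

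The last family, AAAGGCGC, is shown at the peaks of rps-24, rps-11 and rps-25, of which rps-25 had the lowest signal of all bound members.
rps-24, chrIV:385533-385633, + strand: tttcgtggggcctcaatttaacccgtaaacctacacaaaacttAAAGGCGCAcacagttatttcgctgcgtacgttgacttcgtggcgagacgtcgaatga
rps-11, chrIV:11602244-11602344, + strand: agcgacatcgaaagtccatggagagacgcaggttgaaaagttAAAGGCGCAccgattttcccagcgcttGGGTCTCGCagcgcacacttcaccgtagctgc
rps-25, chrIV:5947892-5947992, - strand: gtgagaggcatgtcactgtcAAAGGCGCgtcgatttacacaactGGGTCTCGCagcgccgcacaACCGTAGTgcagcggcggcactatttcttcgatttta
The peak at rps-25 was the weakest and held matches to 3 families.

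For comparison, the peaks of rps-3 and rpl-21 are shown with capitals marking only TGACG, the left part of the CREB palindrome.
rps-3, chrIII:6206379-6206479, + strand: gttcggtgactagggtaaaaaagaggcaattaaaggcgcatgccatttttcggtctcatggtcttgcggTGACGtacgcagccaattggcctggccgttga
rpl-21, chrIII:8130504-8130604, - strand: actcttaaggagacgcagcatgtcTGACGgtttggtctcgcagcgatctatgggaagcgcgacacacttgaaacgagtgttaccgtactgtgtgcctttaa
The peak at rps-1 also held TGACG, on the other strand, within the sequence printed above.

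Of the 82 ribosomal protein genes 70 were bound, which is 85.4% (Wilson 95% interval 76.1% to 91.4%). Over all protein-coding genes, 3857 of 19973, or 19.3%, were bound by the same rule. The large subunit had 40 bound genes of 50, or 80% (67% to 88.8%), and the small subunit had 30 of 32, or 93.8% (79.9% to 98.3%). These intervals overlap, and they cover counting error only. The 70 genes rested on 67 separate peaks, because 3 pairs of members lay on either side of 1 summit. Each bound member had exactly 1 summit in its window, whereas 285 of all bound genes, 7.39%, had at least 2. Bound genes of the translation lists described below were much like the members in this. At least 2 summits were found at 0 of 31 for the mitochondrial ribosome, 1 of 27 translation factors and 0 of 11 for ribosome assembly. Members were bound on every nuclear chromosome, with 22 of 25 genes on I, 9 of 10 on II, 17 of 19 on III, 16 of 18 on IV, 5 of 8 on V and 1 of 2 on X. Over all protein-coding genes the bound share was 23.7% on I, 17.9% on II and 26.9% on III. It was 18% on IV, 13.9% on V and 20.6% on X. RefSeq names 2 more genes in this way that the annotation used here lists without an rpl- or rps- symbol, rpl-27A (Y37E3.8) and rpl-37.1 (W01D2.1). Both were bound, by peaks of rank 1518 and 1597, and they are not among the 82.

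Signal at the bound members lay high in the list. Peaks were ranked by the authors' pooled signal, from 1 for the strongest of the 5735. The members' peaks ran from rank 5 at rpl-3 to rank 4455 at rps-25, and the median over the 70 bound genes was 560.5. The median rank over all bound protein-coding genes was 2369. The strongest 25% of the list, down to rank 1433, held the peaks of 56 of the 70 bound members, 80%, against 32.6% of all bound genes. Member peaks made up 1.17% of the list, and of the 100 strongest peaks 10 were at members. Median ranks were 507 for the large and 692 for the small subunit, and both subunits had members throughout the upper part of the list. The bound members thus formed a long slope from a few very strong promoters to weak ones.

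**Figure D1:**
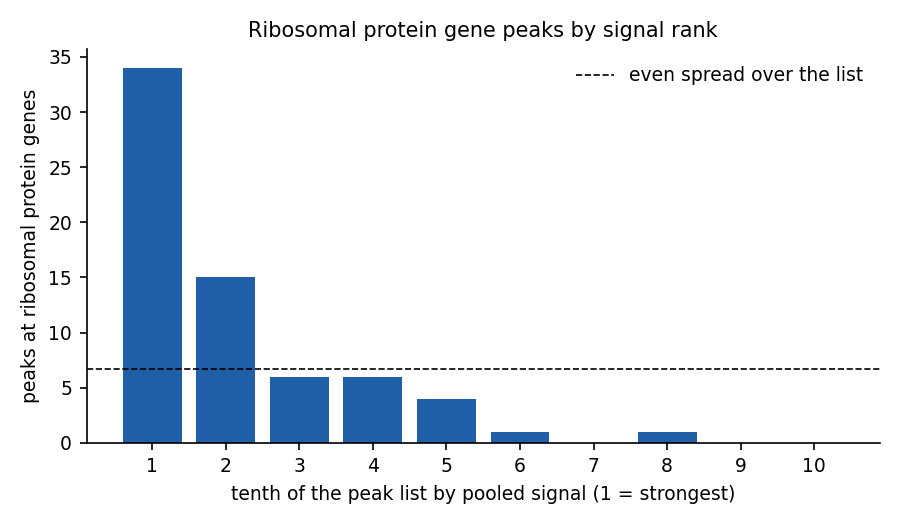
Number of peaks at ribosomal protein genes (vertical axis) in each of 10 equal bins of the 5735 peaks ordered by pooled signal (horizontal axis, 1 = strongest); the dashed line is an even spread over the list. The bin of strongest peaks held 34 of the 67 and the next 15, and the 5 weakest bins together held 2.

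To set the replicates side by side, the signal of each peak was divided by the median over the peaks in the same replicate, so that a relative signal of 1 is a typical peak. The median relative signal of bound members was 2.33 in replicate 1 and 2.34 in replicate 2, against 1.09 and 1.11 for all bound protein-coding genes. Among large-subunit genes, rpl-3, which encodes a protein that reaches close to the peptidyl transferase centre, had 12.5 in replicate 1 and 10.3 in replicate 2. The value at rpl-20 was 10.5 in replicate 1 and 10.8 in replicate 2, and its peak followed that of rpl-3 at rank 6. These were the only members above 10 in both replicates. At rpl-35, which encodes a protein near the exit of the nascent chain, relative signal was 9.14 and 9.5, at rank 12. At rpl-15 it was 8.62 and 7.69, at rank 19. The peak of rpl-12, a protein at the base of the stalk where elongation factors dock, gave 6.45 and 6.15. At rpl-11.2, which encodes a protein that joins the ribosome with the 5S RNA, the values were 5.64 and 5.28.

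The strongest small-subunit genes lay below the first 4 of the large subunit. At rps-20 relative signal was 5.93 in replicate 1 and 6.93 in replicate 2, and at rps-12 it was 6.72 and 6.1. Their peaks had ranks 38 and 40. At rps-19, whose human counterpart is mutated in Diamond-Blackfan anaemia, the values were 6.34 and 5.78, and at rps-1 they were 5.36 and 5.73. The order of these 4 small-subunit genes differed between the replicates, so their ranks do not set them apart. Then followed rps-15 with 4.19 and 4.32, at rank 111, and rps-28 with 4.5 and 3.57, at rank 130. At the other end, rpl-18 had the lowest pooled signal of the large subunit, with 0.839 and 1.16 at rank 2578. The lowest of the small subunit, rps-25, had 0.58 and 0.838. Only rps-25 and rps-7 of the bound members lay beyond rank 2867, the middle of the list. With the peaks beyond that rank left out, 68 members were bound, at 11.2% of all genes.

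**Figure D2:**
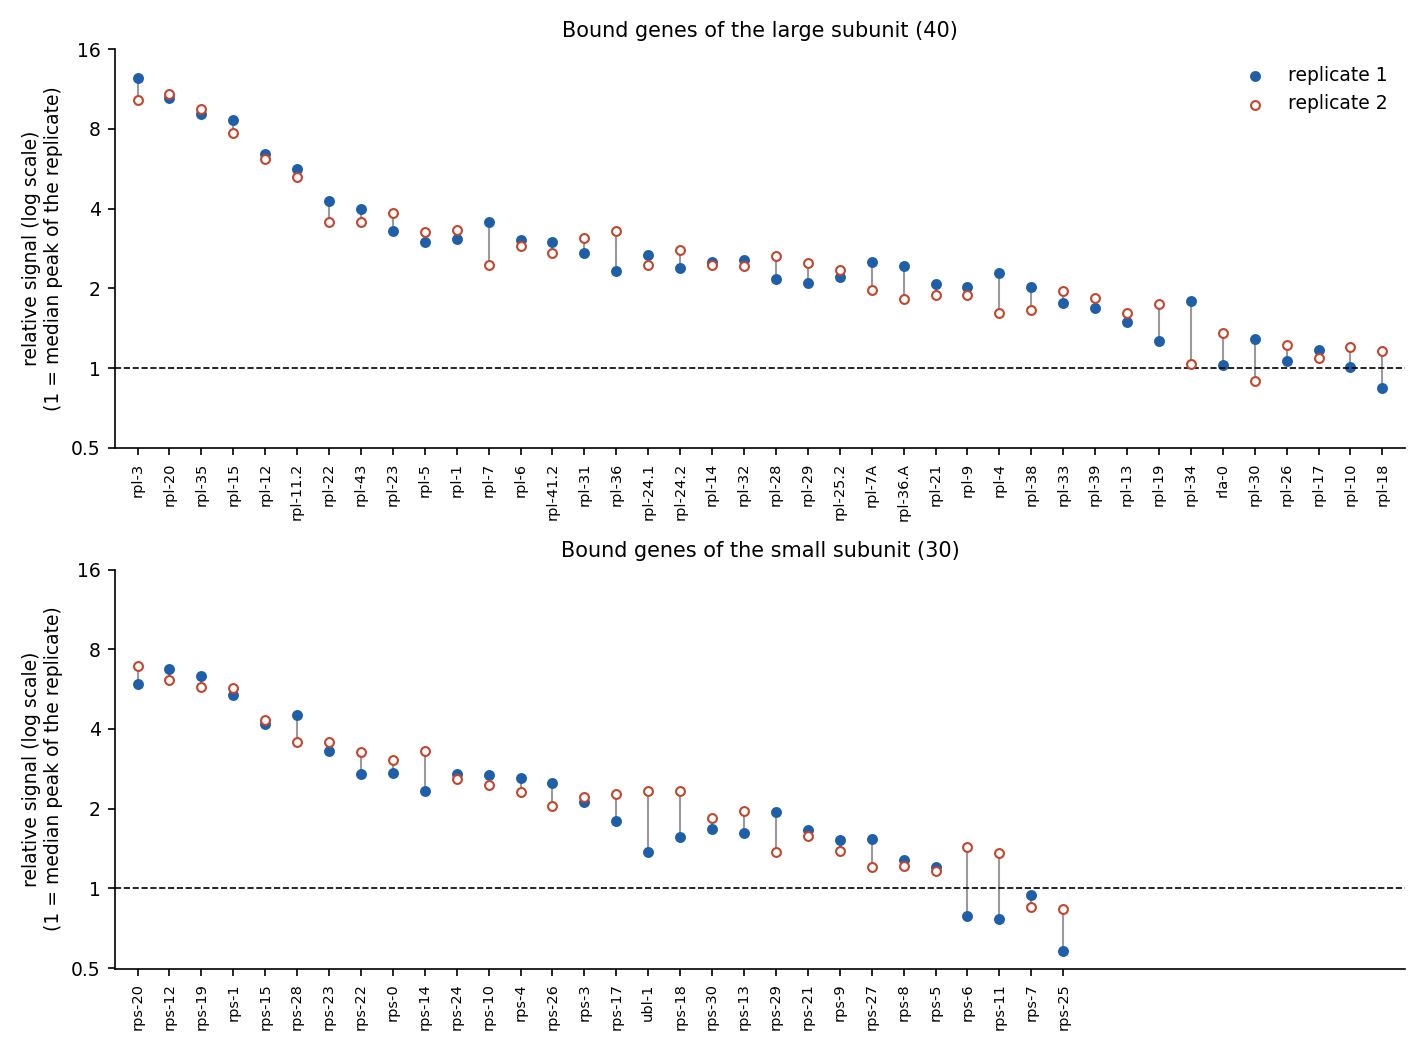
Relative signal of the peak at each bound ribosomal protein gene (vertical axis, log scale, 1 = median peak of that replicate), for 40 large-subunit genes above and 30 small-subunit genes below, ordered by pooled rank; filled points are replicate 1, open points replicate 2, and grey lines join them. Values fall from 12.5 and 10.3 at rpl-3 to 0.58 and 0.838 at rps-25, and the points of a gene lie close together in comparison with the range over genes.

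The replicates gave nearly the same order of members. All 67 member peaks overlapped a region in both replicates, and in all of them the values were within 2-fold of each other, against 94.4% of the 5704 peaks found in both. The SD of the log2 ratio of replicate 1 to replicate 2 was 0.33 over member peaks and 0.51 over all peaks. Member peaks were stronger than the list as a whole, and peaks of like signal were not compared with them. Replicate 1 was higher at 34 and replicate 2 at 33. Over the 67 peaks the rank correlation of the replicates was 0.928 (Spearman) and that of log2 values 0.938 (Pearson), across peaks that share the same libraries and that span a wide range of signal. The widest gaps were at rps-6, with 0.789 in replicate 1 and 1.43 in replicate 2, and at rps-11, with 0.763 and 1.36. The gene rps-6 encodes the small-subunit protein that S6 kinase phosphorylates in animals. In the other direction rpl-34 had 1.79 and 1.04. At ubl-1, which encodes a ubiquitin-like domain fused to a small-subunit protein, the values were 1.37 and 2.33, and at rps-18 they were 1.56 and 2.34. With as many of the strongest regions of replicate 1 alone as the replicated list holds, 71 members were bound, at 18.8% of all genes. With replicate 2 alone, 72 were bound, at 18.9% of all genes. Both replicates and the replicated list shared 69 bound members, and rps-25 was the only one that the strongest regions of replicate 1 did not hold.

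Summits stood at a narrow distance from the annotated 5′ ends. The median summit of bound members lay 294 bp upstream, at -294, with quartiles of -365 and -249.8 and a range from -727 to -27. Over all bound protein-coding genes the median was -223 and the quartiles -419 and -116, so the distance between quartiles was 116 bp at members and 303 bp over all. A summit 200 to 400 bp upstream was found at 54 of 70 members, 77.1%, and at 27.5% of all bound genes. Among bound genes of the translation lists below, the share was 55.6% for translation factors, 54.5% for ribosome assembly and 29% for the mitochondrial ribosome. The distance between quartiles was 195 bp for translation factors, 202 bp for ribosome assembly and 134 bp for the mitochondrial ribosome. Of the remaining members, 7 had the summit nearer than 200 bp and 9 farther than 400 bp. The medians of the subunits were -289 for the large and -296 for the small. The most upstream summits were at rpl-43 with -727, rps-27 with -591 and rps-18 with -530. The closest were at rpl-12 with -27, rpl-7A with -43 and rps-22 with -117. No member had its summit downstream of the 5′ end. In the replicates, the summits of a member peak lay a median of 12 bp apart and at most 89 bp, and over all peaks the median was 22 bp. Here too, peaks of like signal were not compared.

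**Figure D3:**
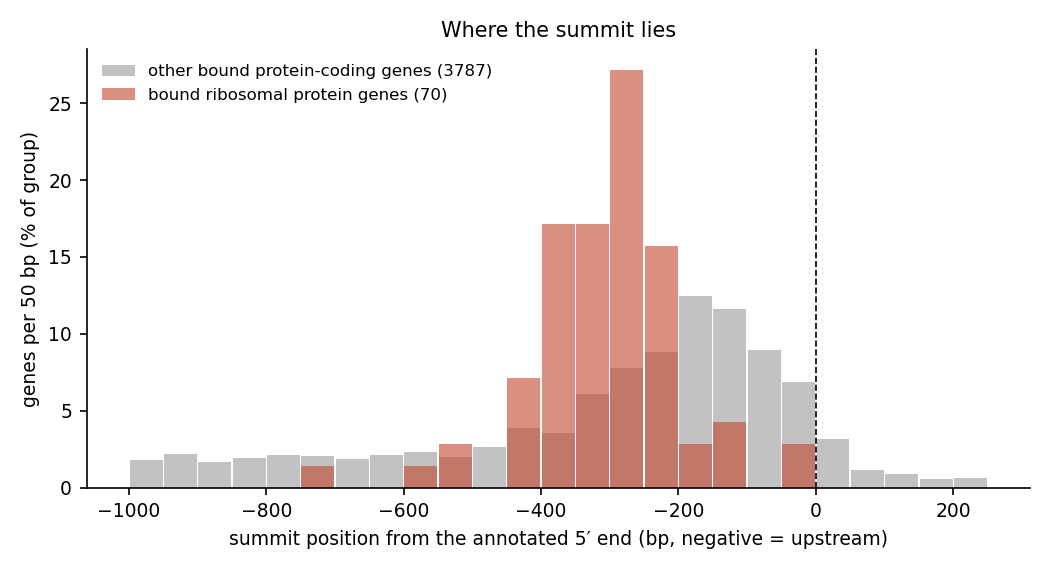
Position of the strongest summit in the promoter window relative to the nearest annotated 5′ end (horizontal axis, bp, negative values upstream), as the percentage of genes per 50 bp (vertical axis), for 70 bound ribosomal protein genes in red and 3787 other bound protein-coding genes in grey. The members gather 200 to 400 bp upstream, with a median of -294, while the other genes have their highest bars nearer to the 5′ end and a tail farther upstream.

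Another window changed the call at few members. With a window from 500 bp upstream to 100 bp downstream, 66 members were bound, at 15.5% of all genes, and the genes lost were rpl-43, rps-18, rps-27 and rps-29. With 2000 bp upstream to 500 bp downstream, 74 were bound, at 24.5% of all genes, with rla-1, rpl-11.1, rpl-16 and rps-16 gained.

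Most of the bound promoters were shared with another gene. At 47 of 70 bound members, 67.1%, the same summit lay in the window of at least 1 other protein-coding gene, against 42.1% of all bound genes. The share was much like that of members at bound genes of the translation lists described below. It was 67.7% for the mitochondrial ribosome, 63% for translation factors and 72.7% for ribosome assembly. The 47 members were 27 genes of the large and 20 of the small subunit. At 45 the partner was a gene outside the list, and in 40 of these it was on the opposite strand. The summit lay upstream of both 5′ ends in 39 of the 40, and at rps-18 it lay downstream of the 5′ end of the partner, sec-61.A. The summit was nearer to the other gene's 5′ end in 26 of the 45 and nearer to the member's in 19. The peak at rpl-12 was shared with lin-54, a DNA-binding subunit of the DRM complex that represses cell-cycle genes. The peak at rpl-30 was shared with pab-1, which encodes poly(A)-binding protein. Shared and unshared summits stood at the same distance, with medians of -293 and -294, and their median ranks were 551 and 811. The 23 unshared members included rpl-3, rpl-35 and rpl-11.2, at ranks 5, 12 and 59. For these counts only protein-coding genes were considered, and whether a partner gene has a part in the signal was not tested. When each peak counted only for the gene whose 5′ end was nearest, 43 members remained bound, 26 large and 17 small. This rule had no limit of distance and kept ties, and by it 21.2% of all genes were bound. With 1 gene per promoter peak, chosen among the genes whose windows held the summit, 41 remained, at 15.4% of all genes.

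In 3 cases both genes at a summit were ribosomal protein genes of different subunits. The divergent pair rpl-36 and rps-14 shared the peak of rank 347, with relative signal of 2.33 in replicate 1 and 3.29 in replicate 2. The summit lay 403 bp upstream of rpl-36 and 260 bp upstream of rps-14, at -403 and -260. The pair rpl-24.1 and rps-10 shared the peak of rank 432, with 2.68 and 2.46, at -244 and -366. The pair rpl-39 and rps-30 shared the peak of rank 983, with 1.68 and 1.84. That summit was nearly midway, at -252 from rpl-39 and -247 from rps-30, and the gene rps-30 encodes a small-subunit protein made as a fusion with a ubiquitin-like domain.

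The 12 members without a summit were rla-1, rla-2, rpl-2, rpl-11.1, rpl-16, rpl-25.1, rpl-27, rpl-37, rpl-41.1, rpl-42, rps-2 and rps-16, 10 of the large and 2 of the small subunit. In 5 of them, rla-1, rpl-16, rpl-25.1, rpl-27 and rps-16, the nearest gene upstream was on the same strand and ended 97 to 119 bp away, a spacing usual within worm operons. No bound member had a same-strand upstream gene closer than 364 bp. In each of the 5 the upstream gene was itself bound. The gene before rla-1, which encodes an acidic protein of the ribosomal stalk, is Y37E3.8, named rpl-27A by RefSeq and so another ribosomal protein gene. The peak of Y37E3.8 lay at -271 from its own 5′ end, with rank 1518. Before rpl-16 stood lias-1, a lipoyl synthase, at rank 716, and before rps-16 stood fib-1, the nucleolar methyltransferase fibrillarin, at rank 769. Before rpl-25.1 stood glit-1, a neuroligin-like gene, at rank 268, and before rpl-27 stood C53H9.2, a homologue of the ribosome export GTPase LSG1, at rank 4364. The summits at Y37E3.8, glit-1 and fib-1 each lay in the window of a further gene as well. Of the 1803 other protein-coding genes with so close a same-strand neighbour, 218 were bound, 12.1%, and the first gene of the row was bound at 789, or 43.8%. The limit of 150 bp for a close neighbour was set after the distances had been seen, and whether these genes are transcribed from the upstream promoter was not tested.

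**Figure D4:**
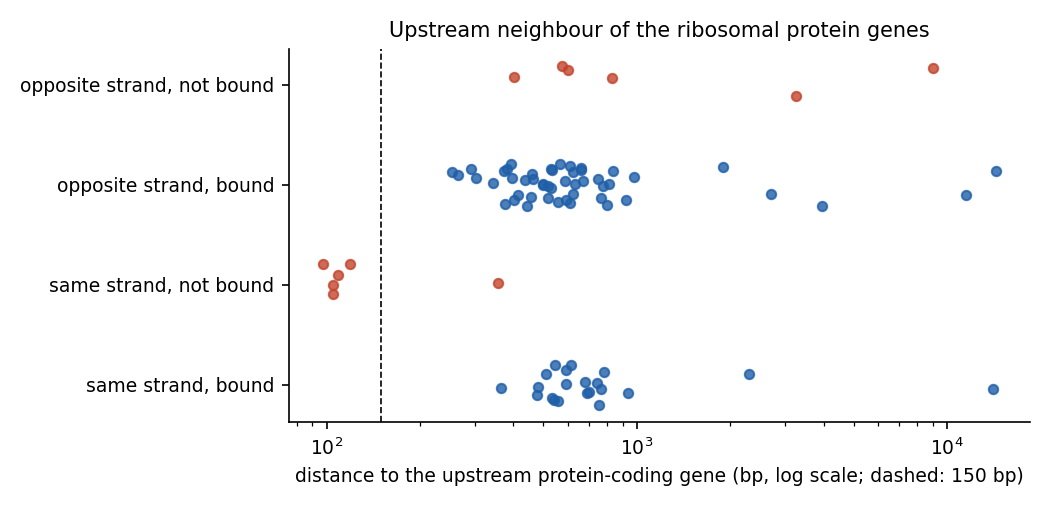
Distance from each of the 82 ribosomal protein genes to the nearest upstream protein-coding gene (horizontal axis, bp, log scale), in rows by the strand of that neighbour and by whether the ribosomal protein gene was bound (blue) or not (red); points are spread vertically within a row for legibility, and the dashed line is 150 bp. The 5 unbound genes at 97 to 119 bp stand apart from the 21 bound genes with a same-strand neighbour, the closest of which is at 364 bp.

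The other 7 unbound genes had no such neighbour, and several were just under the cut of the replicated list. The full pooled list of 30000 regions had a region in the window of 7 of the 12, against 31.8% of all unbound protein-coding genes. The lowest pooled signal in the replicated list was 62.3. The best regions at rps-2, rpl-2 and rpl-41.1 had signals of 56.6, 56.1 and 55.1, at ranks 6419, 6492 and 6612 of the pooled list. These lay at -269, -370 and -593 from the 5′ end. With replicate 1 alone rpl-2 and rpl-41.1 were among the bound genes, and with replicate 2 alone rpl-41.1 and rps-2 were. Weaker regions stood at rpl-27 with rank 8526, at rpl-11.1 with 10292, at rps-16 with 19305 and at rpl-37 with 20807. No pooled region lay in the windows of rla-1, rla-2, rpl-16, rpl-25.1 and rpl-42. Of these, rla-1, rla-2 and rpl-25.1 had no region in either replicate. The stalk gene rla-2 was the most isolated, with the nearest replicated summit 16000 bp upstream, while rla-0, the stalk's anchoring protein, was bound at rank 1983 with 1.03 in replicate 1 and 1.36 in replicate 2.

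In 3 of the 4 pairs of members whose symbols share a number and end in a point and 1 or 2, 1 gene was bound and the other was not. The gene rpl-11.2 had rank 59, while rpl-11.1 had only a pooled region of rank 10292. The gene rpl-25.2 was bound at rank 589, with 2.2 in replicate 1 and 2.35 in replicate 2, while rpl-25.1 was unbound in every list. The gene rpl-41.2, for the smallest ribosomal protein, was bound at rank 316 with 3 and 2.72. Its partner rpl-41.1 lies just upstream on the same strand, and the summit of rpl-41.2 stood 847 bp downstream of the 5′ end of rpl-41.1, outside its window. The contrast in this pair depended on the cut, since rpl-41.1 was bound with either replicate alone. Its best pooled signal was 55.1, and the lowest in the replicated list was 62.3. In the remaining pair both were bound at like strength, rpl-24.1 at rank 432 with 2.68 and 2.46 and rpl-24.2 at rank 438 with 2.39 and 2.78. Such names do not by themselves show that the genes are close copies, and how reads were placed between near-identical copies was not stated in these sources.

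The sequences known for CREB factors were rare at the member peaks. On both strands of the 101 bases around each summit, TGACGTCA occurred at 0 of 67 member peaks and at 1.54% of the 3242 other promoter peaks. The related TGACGTGG or TGACGTGT occurred at 0 of 67 and at 2.93%. For a count of 0 of 67 the Wilson interval reaches 5.42%, above both of these shares. The left part TGACG, which both longer forms contain, occurred at 6 member peaks, 8.96% (4.17% to 18.2%), and at 22.9% of the other promoter peaks. The 6 were the peaks of rla-0, rpl-19, rpl-21, rpl-25.2, rps-1 and rps-3. Within 500 bp upstream of the 5′ ends TGACG was present at 19 of 70 bound members, 27.1%, at 4 of 12 unbound members, 33.3%, at 44.7% of the other bound genes and at 40.7% of all protein-coding genes. CACGTG, the E-box that many basic helix-loop-helix factors bind, occurred at 2 of 67 peaks, 2.99%, and at 6.63% of the others. GAGAGAGA occurred at 0 and at 5.18%, and GGGCGG, a GC box, at 4, or 5.97%, and at 4.32%. The member windows were richer in G and C, with a median of 49.5% against 43.6% for all promoter peaks, and the part of base composition in these shares was not tested.

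The sequence of 8 bases found at the most member peaks was GCGAGACC, at 21 of 67, 31.3%, against 2.31% of the other promoter peaks. CGAGACCC, which overlaps it by 7 bases, was found at 20, 29.9%, against 2.16%. AAAGGCGC and AACGAGTG followed with 14 each, against 1.42% of the other promoter peaks for AAAGGCGC. These were picked from the same windows in which they were counted, so the shares describe the member peaks and test nothing. Of the 12 most shared sequences, 9 were grouped, after the counts were seen, into 4 families of overlapping bases. GAGACCCA and GGCGAGAC, which overlap the first family, and ATACTCAG were left out. The family of GCGAGACC and CGAGACCC was at 24 of 67 peaks, 35.8%, against 2.9% of the others. The family of ACCGTAGT and TACGGTAA was at 21, 31.3%, against 1.79%. The family of AACGAGTG, AAACGAGT and ACACTCGT was at 15, 22.4%, against 1.3%, and that of AAAGGCGC and AAGGCGCA at 14, 20.9%, against 1.76%. At least 1 family was present at 44 member peaks, 65.7%, and at 6.57% of the other promoter peaks. At least 2 were present at 24, 35.8%, and at 1.08%. ATACTCAG, at 11 member peaks, can be read in the sequences of rpl-6 and rpl-39 printed above.

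GCGAGACC stood close to the summit and, counted per member gene, mostly in 1 direction. Within 200 bp of the summits it had 22 matches, counted per gene, since rpl-39 and rps-30 share 1. All 22 were within 50 bp of the summit, the window in which the sequence had been picked, at a median distance of 13 bp. At the other promoter peaks, which had no part in the choice, 73.1% of 104 matches within 200 bp were within 50 bp. In 18 of the 22 the sequence read against the direction of the gene, that is as GGTCTCGC along it, and in 4 with it. The match that rpl-39 and rps-30 share counts once in each direction. Several of these members share their summit with an opposite-strand gene, so that against 1 gene is with the other. The direction at other promoter peaks is not given here. The median position of the match was -279 from the 5′ end. Counted per gene, bound members with GCGAGACC at the summit had a median rank of 1168, and those without it 423. The strongest member peaks were thus mostly not the ones with it. Of the 34 member peaks among the 573 strongest of the list, 7 held the GCGAGACC family and 11 the ACCGTAGT family. Upstream of the genes, within 500 bp of the 5′ end, GCGAGACC was present at 21 of 70 bound members, at 2 of 12 unbound members, which were rla-2 and rpl-2, at 4.89% of the other bound genes and at 2.36% of all protein-coding genes.

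**Figure D5:**
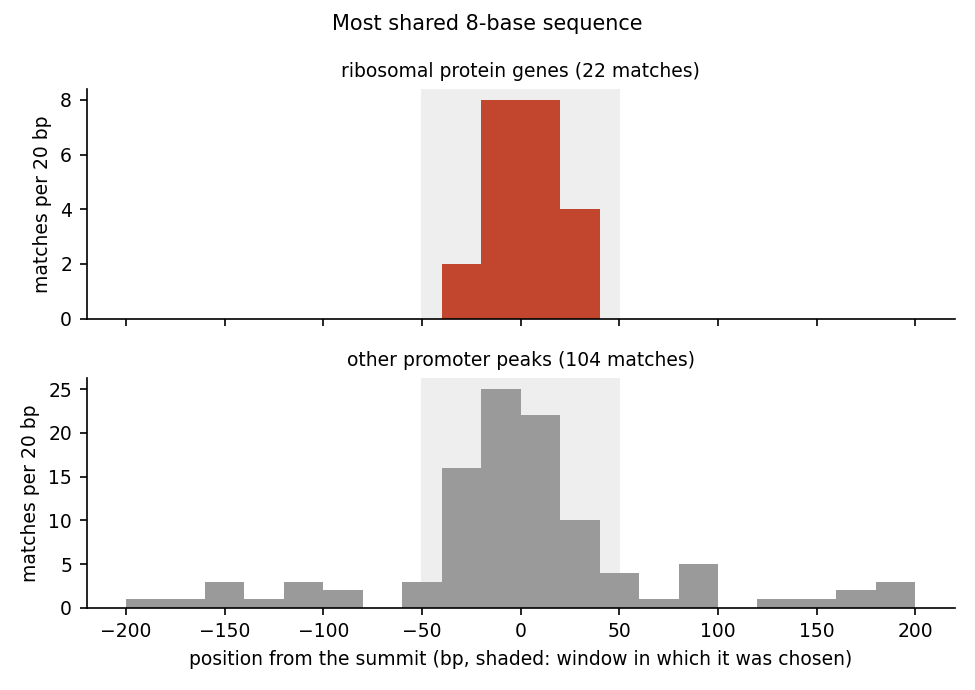
Position of the most shared 8-base sequence relative to the summit (horizontal axis, bp) as matches per 20 bp (vertical axis), at the peaks of ribosomal protein genes above and at other promoter peaks below; the shaded band is the window of 50 bp to each side in which the sequence was picked. All 22 matches at members and 73.1% of the 104 at other promoter peaks lie in the band.

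Other genes of translation were bound at varied shares and, by the median rank, with less signal. Of 70 genes for the mitochondrial ribosome, named mrpl- or mrps-, 31 were bound, 44.3% (33.2% to 55.9%), at a median rank of 2199. Of 34 translation factors, 27 were bound, 79.4% (63.2% to 89.7%), at a median rank of 2265. The strongest was iff-2, which encodes the hypusinated factor eIF5A, at rank 4, ahead of every member. Of 19 genes for ribosome assembly, 11 were bound, 57.9% (36.3% to 76.9%), at a median rank of 1167. All of these stand beside 19.3% and a median rank of 2369 over all protein-coding genes, and beside 85.4% and 560.5 for the cytosolic ribosomal proteins. The lists of translation factors and of ribosome assembly overlap, and some genes of these lists share their peak with a member. The genes ubq-2, a ubiquitin fused to a large-subunit protein, and rack-1, a scaffold protein on the small subunit, carry other names and are not among the 82. At ubq-2 relative signal was 2.25 in replicate 1 and 1.44 in replicate 2, at rank 794, and at rack-1 it was 1.47 and 1.73, at rank 1242. Their summits lay at -467 and -222. At crh-2 itself no region lay within 1000 bp in any of the lists, so its own locus gave no check of the labels.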

How the data were processed

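ChIP-seq lists of 2 biological replicates were used, grouped by the labels. The deposited lists hold the authors' regions for each replicate, for both pooled, and for the set kept by an irreproducible discovery rate (IDR) procedure, per the names of the deposited lists, called the replicated list here. The aligner is not given in the sources used here, nor is the peak caller. The deposited lists on ce11, the same sequence as WBcel235, were used. The signal of a region is the authors' value and served only for ranks and ratios within 1 list. The deposited −log10 q-value of a region entered no result, and the deposited summit position, another value of the authors, was taken as given. All 5735 replicated peaks were identical to the strongest pooled regions. Depth is unknown, so intervals cover counting error only, and no control library was analysed here.

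Gene models were Ensembl release 115. Sequence was read from the RefSeq assembly of the same build, with positions 1-based, and none is printed from chromosome I. Relative signal was taken from the strongest replicate region overlapping a peak by at least 1 bp, divided by the replicate's median over the peaks. Sequences were counted on both strands. The members and lists were chosen with earlier results of these data known, so no set was tested and no p-value was computed. Named genes are the 12 strongest bound members, the unbound members, paralog pairs, members that share a summit, the 3 most upstream and 3 most downstream summits, the 5 widest replicate ratios, the weakest member of each subunit, crh-2, ubq-2 and rack-1. The genes rpl-30, rps-7, rps-29, rla-0, rpl-27A, rpl-37.1 and iff-2, and the neighbours of members, were named after their values were seen, as were some genes whose sequence is printed. Of 36 translation factors and 21 assembly genes looked for, 34 and 19 were found. The assignment of summits was tested on simulated data. Alternatives changed the window, the strictness, the replicate, the gene assignment, the overlap and the motif window. The tools were numpy 2.4.6, scipy 1.17.1 and, for plots, matplotlib 3.10.9 under Python 3.11.15.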

Additional observations from a re-analysis of the deposited data

How the results depend on the processing

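Of 71 alternative values for 20 results, 58 stayed within the tolerance, 13 moved past it and 0 reversed. The tolerance was 1.5 times for a count and 1 SD between the replicates for a median, so a small shift in a median could pass it. Giving each peak to the nearest 5′ end, at any distance, lowered the bound members from 70 to 43 (26 large, 17 small). Taking 1 gene per promoter peak lowered them to 41 (24 large, 17 small). Each summit then counts for 1 gene, or for genes tied in distance. With 1 replicate left out, bound members were 71 to 72 (large 41 to 42, small 29 to 31), their median rank 538 to 580.0 (large 487 to 542, small 567 to 777), and the median summit offset -290.0 to -288 against -294. Where a replicate's region had to hold the summit, the median relative signal was 2.36 against 2.34. Within 100 bp of the summit, TGACG was at 11 of 67 member peaks in place of 6, or 16.4% against 32.4% of all promoter peaks in the same longer window. In the wider lists, 7 of the 12 unbound members had a pooled region, and 7 to 8 had one with 1 replicate left out. Among unbound members, 5 had a same-strand upstream gene within 150 or 300 bp, and 6 within 500 bp, limits chosen after seeing the data; 0, 0 and 3 bound members did. No paired analysis was possible because there is 1 group and no comparison between groups. The unknown depth limits what the absence of a peak at the unbound members shows.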
